A study of Mus musculus with 6 samples.

Results

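De novo fatty acid synthesis was followed through 9 genes, named by symbol in the deposited tables of 33639 gene symbols: the transcription factor genes Srebf1 and Mlxipl, the enzyme genes Acly, Acss2, Acaca, Acacb, Fasn and Me1, and Thrsp. The list names parts of the pathway, and no value in the tables enters the rule. All 9 were above the limit used for low counts in both tissues.

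The pathway turns surplus carbohydrate into fat. Citrate leaves the mitochondrion and is split into acetyl-CoA, which is carboxylated to malonyl-CoA and then lengthened by fatty acid synthase to palmitate, with NADPH as the reductant. In liver its genes are switched on by SREBP-1c, whose gene Srebf1 is itself induced by insulin and by the oxysterol receptor LXR, and by ChREBP, the product of Mlxipl, which responds to glucose.

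The libraries came from mice that lack ABCG8 in the whole body, all labelled male. ABCG8 forms, together with ABCG5, the transporter that sends plant sterols back into bile and gut. All mice received a low sterol diet with 0.005% ezetimibe, a blocker of intestinal sterol uptake, until weaning. For the next 12 weeks they ate a high sitosterol, an ergosterol, a stigmasterol or a low sitosterol diet, and 1 mouse was taken per group. The livers of all 4 groups and the adrenals of the high and low sitosterol groups were sequenced. The stated comparisons set the high sitosterol, ergosterol and stigmasterol livers against the low sitosterol liver, and the high against the low sitosterol adrenal. The labels give neither strain nor the sterol content of the diets. The low sitosterol group carries the same deletion and had the same early diet, so no wild type stands in any comparison.

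The rounded counts of a library summed to between 41546507 and 50573364. Levels are given as TPM, a length-scaled share that allows genes to be compared, or as scaled CPM, counts relative to the library total (CPM) after TMM scaling within a tissue. The TMM factors were 0.947 for the high sitosterol, 0.935 for the ergosterol, 1.37 for the stigmasterol and 0.824 for the low sitosterol liver, so the stigmasterol comparisons depend most on the scaling. Which stretch of Abcg8 was deleted is not stated in the labels, so the gene's total (490, 394, 788 and 51 counts in the high sitosterol, ergosterol, stigmasterol and low sitosterol livers) does not check the knockout. The Y-linked gene Eif2s3y had 1293 to 1680 counts in the livers but 2 in the high and 0 in the low sitosterol adrenal, where a count of 0 allows up to 0.0722 CPM. The adrenal libraries thus went against their male label, and whether they came from the same mice as the livers is not known. Genes of the adrenal cortex were also found in the low sitosterol liver at a median of 0.0919% of their mean adrenal level, and at 0.00448% to 0.0130% in the other livers. At that share adrenal Acly would add 0.839 TPM to the 65.4 TPM of the low sitosterol liver. In bulk tissue, fewer cells of a type and less RNA per cell cannot be told apart.

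Since each group has 1 library, no replicate error, test or p-value can be given. A gene is called higher or lower when its scaled counts differ at least 2-fold and the exact 95% interval of the ratio excludes equality. The intervals cover counting error only. They excluded equality in all 54 ratios of the 9 genes over the 6 pairs of livers, so counting error limits none of them, while the spread between mice is unknown. What is compared is thus single libraries, not diets.

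Promoter sequence was read for the genes because the genes are known to share regulators. The RefSeq table (GRCm38.p6) held 13 windows for the 9 genes, each from 250 bases before to 50 bases after a start site. Searched on both strands were ATTGG, the box bound by NF-Y (CCAAT when reversed), CACGTG, an E-box, TCACNCCAC, a sterol regulatory element, and the direct repeat of AGGTCA around NNNN, to which LXR and thyroid hormone receptor bind. The NF-Y box was present in 9 of the 13 windows, against 37.4% of the 32851 promoters in the table. These 9 windows belong to 8 genes, all but Acaca, and some genes had more than 1 window. The Acaca window begins at 84195188, inside a gene that starts at 84129672. The Acacb window, which holds an NF-Y box, begins at 114165268, inside a gene that starts at 114146535. Other start sites of Acaca and Acacb were thus not read. The E-box and the sterol regulatory element were each present in 1 window, both of Mlxipl, against 7.15% and 1.24% of promoters. The spaced repeat was in 0 of the 13 windows and in 5 promoters of the table. Shown are the 250 bases before the start site of Mlxipl (chr5:135089640-135089889, plus strand), Fasn (chr11:120824548-120824797, minus strand) and Thrsp (chr7:97417551-97417800, minus strand), chosen for holding the most kinds or copies of these motifs, with NF-Y boxes and the E-box in capitals.
Mlxipl: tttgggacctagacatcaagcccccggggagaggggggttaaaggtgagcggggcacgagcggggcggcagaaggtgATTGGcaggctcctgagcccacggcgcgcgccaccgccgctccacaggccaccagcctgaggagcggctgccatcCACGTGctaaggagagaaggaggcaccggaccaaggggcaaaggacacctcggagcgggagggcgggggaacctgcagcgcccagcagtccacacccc
Fasn: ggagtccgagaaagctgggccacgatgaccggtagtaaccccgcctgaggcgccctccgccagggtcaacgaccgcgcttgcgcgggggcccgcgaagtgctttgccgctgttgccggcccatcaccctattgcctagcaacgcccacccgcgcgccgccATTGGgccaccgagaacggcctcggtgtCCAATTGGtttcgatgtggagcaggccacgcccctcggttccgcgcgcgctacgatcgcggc
Thrsp: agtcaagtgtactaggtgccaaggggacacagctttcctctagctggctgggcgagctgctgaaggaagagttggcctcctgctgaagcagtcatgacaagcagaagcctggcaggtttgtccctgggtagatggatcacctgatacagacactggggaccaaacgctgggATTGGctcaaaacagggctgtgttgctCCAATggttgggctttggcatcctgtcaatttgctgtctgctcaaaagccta
The Mlxipl window has an NF-Y box at -173 and the E-box at -98, counted from the start site to the first base of the motif. Fasn has NF-Y boxes at -90, -62 and -59, the last pair overlapping on opposite strands, and Thrsp has them at -79 and -52. Such matches describe letters and not binding.

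Among the 9 genes, Srebf1 was with TMM the only gene above the low sitosterol liver in all 3 sterol-fed livers. Srebf1 (GRCm38 chromosome 11, 60199089 to 60222581, minus strand) encodes SREBP-1, and its gene total does not separate the SREBP-1a and SREBP-1c transcripts. It had 402 scaled CPM in the high sitosterol, 354 in the ergosterol, 233 in the stigmasterol and 221 in the low sitosterol liver. The 3 sterol-fed livers lay above the low sitosterol liver, by log2 ratios of 0.86 (0.82 to 0.90), 0.68 (0.64 to 0.71) and 0.07 (0.04 to 0.11), none of which reached the 2-fold limit. The high sitosterol ratio was nonetheless above that of 89.0% of all genes analysed. By TPM the order of the livers was the same, at 138, 119, 112 and 74.7. Srebf2, the paralogue that mainly serves cholesterol synthesis, was far lower per length: the TPM of Srebf1 was 24.2, 13.0, 10.1 and 14.5 times that of Srebf2 in the high sitosterol, ergosterol, stigmasterol and low sitosterol livers.

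Mlxipl (chromosome 5, 135089890 to 135138382, plus strand) encodes ChREBP. It had 183 scaled CPM in the high sitosterol, 143 in the ergosterol and 50.8 in the stigmasterol liver, against 168 in the low sitosterol liver. Only the stigmasterol liver was called lower, at a log2 ratio of -1.73 (-1.79 to -1.67). The high sitosterol and ergosterol ratios of 0.12 and -0.24 were small and changed sign with the scaling. The gene total does not separate the alpha and beta forms of ChREBP, which start at different promoters.

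Acly and Acss2 make cytosolic acetyl-CoA, Acly from citrate and Acss2 from acetate. Acly (chromosome 11, 100476353 to 100528000, minus strand) had 87.1 scaled CPM in the high sitosterol, 404 in the ergosterol and 93.2 in the stigmasterol liver, against 280 in the low sitosterol liver. With TMM the livers thus fell into a low and a high pair, with the ergosterol liver highest. The pairs depended on the scaling. Acly TPM was 26.9 in the high sitosterol, 119.5 in the ergosterol, 47.9 in the stigmasterol and 65.4 in the low sitosterol liver. Over the 10 settings the log2 ratio of stigmasterol to low sitosterol ran from -1.61 to -0.44. The log2 ratios to the low sitosterol liver were -1.68 (-1.73 to -1.63) for high sitosterol, 0.53 for ergosterol and -1.58 (-1.63 to -1.54) for stigmasterol.

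Acss2 (chromosome 2, 155517948 to 155585724, plus strand) had 189 scaled CPM in the high sitosterol, 392 in the ergosterol and 71.1 in the stigmasterol liver, against 441 in the low sitosterol liver. It was called lower in the high sitosterol liver at -1.22 and in the stigmasterol liver at -2.63, its largest difference, while the ergosterol ratio was -0.17. Of its 10163 exonic bases, 395 overlap the opposite-strand gene Gss, and the kit is unstranded. Gss had 4343, 2564, 8601 and 2217 counts in the high sitosterol, ergosterol, stigmasterol and low sitosterol livers, highest where Acss2 was lowest. Per length, Acly stood at 0.384 times Acss2 in the high sitosterol, 0.747 in the ergosterol, 1.13 in the stigmasterol and 0.489 in the low sitosterol liver.

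Me1 (chromosome 9, 86581371 to 86695953, minus strand) encodes cytosolic malic enzyme, a source of NADPH for the synthase. It had 143 scaled CPM in the high sitosterol, 562 in the ergosterol and 166 in the stigmasterol liver, against 654 in the low sitosterol liver. The order followed that of Acly except at the top, where the low sitosterol liver exceeded the ergosterol liver. Me1 was the member furthest below the low sitosterol liver after high sitosterol, at -2.20 (-2.24 to -2.16), and was also called lower after stigmasterol, at -1.98 (-2.01 to -1.94). G6pdx, the first enzyme of the pentose phosphate route to NADPH, had 9.29, 15.7 and 9.13 scaled CPM in the high sitosterol, ergosterol and stigmasterol livers, against 50.1 in the low sitosterol liver, and was called lower in all 3.

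The 2 acetyl-CoA carboxylases differed from each other. Acaca (chromosome 11, 84129672 to 84401651, plus strand), whose cytosolic product makes malonyl-CoA for synthesis, had 184 scaled CPM in the high sitosterol, 242 in the ergosterol and 110 in the stigmasterol liver, against 203 in the low sitosterol liver. None of these passed the 2-fold limit. Acacb (chromosome 5, 114146535 to 114250761, plus strand), whose product sits at the mitochondrion and limits fatty acid entry through CPT1, had 78.6, 241 and 40.0 scaled CPM in the high sitosterol, ergosterol and stigmasterol livers, against 165 in the low sitosterol liver. It was called lower after high sitosterol at -1.07 (-1.13 to -1.02) and after stigmasterol at -2.05 (-2.11 to -1.99). Per length, Acaca stood at 1.72 times Acacb in the high sitosterol and 2.20 times in the stigmasterol liver, but below Acacb in the ergosterol and low sitosterol livers, at 0.833 and 0.870.

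Fasn (chromosome 11, 120805846 to 120824547, minus strand), which encodes fatty acid synthase, had 971 scaled CPM in the high sitosterol, 1321 in the ergosterol and 394 in the stigmasterol liver, against 1163 in the low sitosterol liver. Only the stigmasterol liver stood apart, at a log2 ratio of -1.56 (-1.58 to -1.54). The high sitosterol ratio of -0.26 changed sign with the scaling. Scd1, the desaturase that acts on the products of the synthase, had 14889, 29778 and 13437 scaled CPM in the high sitosterol, ergosterol and stigmasterol livers, against 15764 in the low sitosterol liver. None of the 3 was called. The Scd1 count of the ergosterol liver is listed as exactly 1330000 and may have been rounded. Scd1 TPM was 6.51 times that of Fasn in the high sitosterol, 13.4 in the ergosterol and 19.1 in the stigmasterol liver, against 5.74 in the low sitosterol liver.

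Thrsp (chromosome 7, 97412938 to 97417730, minus strand) encodes Spot 14, a small nuclear and cytosolic protein that is induced by thyroid hormone and carbohydrate and goes with lipid synthesis. It varied most, with 676 scaled CPM in the high sitosterol, 272 in the ergosterol and 40.6 in the stigmasterol liver, against 1385 in the low sitosterol liver. It was called lower in each of the 3, at log2 ratios of -1.03 (-1.05 to -1.01), -2.35 (-2.38 to -2.32) and -5.09 (-5.15 to -5.04). Only 0.359% of genes analysed had a lower ratio between the stigmasterol and low sitosterol livers. Mid1ip1, its paralogue and an activator of the carboxylases, was closer together, at 65.9, 39.6 and 31.3 scaled CPM against 81.6 in the low sitosterol liver. Thrsp TPM was 17.3, 10.9 and 2.17 times that of Mid1ip1 in the high sitosterol, ergosterol and stigmasterol livers, against 28.6 in the low sitosterol liver.

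**Figure D1:**
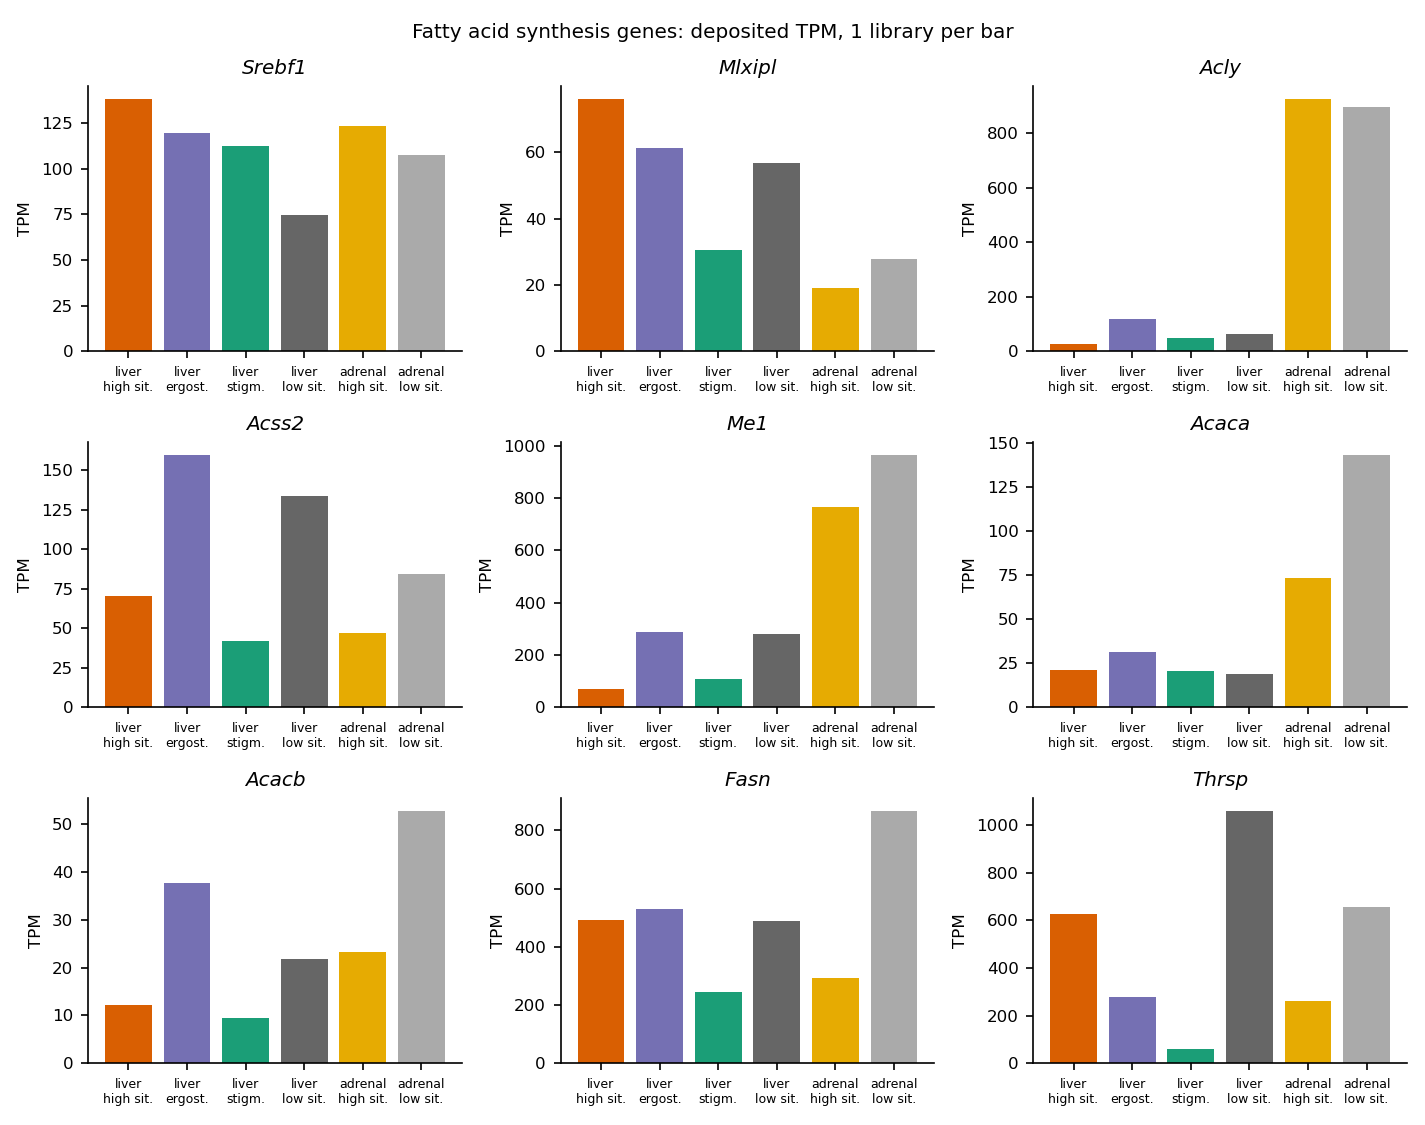
Deposited TPM (vertical axes, each from 0) of the 9 genes in the high sitosterol, ergosterol, stigmasterol and low sitosterol livers and the high and low sitosterol adrenals, with 1 library per bar and no error bars. Thrsp ran between 60.5 TPM in the stigmasterol and 1060.2 TPM in the low sitosterol liver, and Acly, Me1 and Acaca were higher in both adrenals than in any liver.

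The spread over the 4 livers ordered the genes differently from their levels. The highest scaled CPM was 34.1 times the lowest for Thrsp, 6.20 for Acss2, 6.03 for Acacb, 4.64 for Acly, 4.59 for Me1, 3.60 for Mlxipl, 3.35 for Fasn, 2.20 for Acaca and 1.82 for Srebf1. The median over the 7306 genes with a mean of at least 10 scaled CPM was 1.56, so all 9 varied more than the median gene. Per length, Thrsp and then Fasn led the 9 genes in the high and low sitosterol livers. Fasn and Me1 led in the ergosterol liver, and Fasn and Srebf1 in the stigmasterol liver. The 9 genes together took 0.276% of the counts of the high sitosterol, 0.367% of the ergosterol, 0.164% of the stigmasterol and 0.385% of the low sitosterol liver.

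After high sitosterol, 5 of the 9 genes were called lower than in the low sitosterol liver (Acly, Acss2, Acacb, Me1 and Thrsp) and 0 were called higher. Over all 13378 genes analysed in liver, 12.9% were called, 8.63% higher and 4.32% lower. The median log2 ratio of the 9 genes was -1.03, against -0.05 over all genes. With library totals in place of TMM the call on Srebf1 became higher, at 1.06, and 3 genes were called lower (Acly, Acss2 and Me1). On the TPM scale 2 did, Acly and Me1, and these were called under all 10 settings. The share of higher among all calls was 66.6% with TMM, 78.4% with library totals, 81.5% with log2(TPM + 0.1) and 48.4% with hepatocyte-gene scaling. Relative to TMM, the median over all genes shifted by 0.20, 0.26 and -0.25 in the same order of alternatives.

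After ergosterol, 1 of the 9 genes was called lower (Thrsp) and 0 were called higher, against 11.9% of all genes called, 5.77% higher and 6.08% lower. That share of the 9 is close to the background. The median log2 ratio was 0.18, against 0.00 over all genes. Acly, Acacb and Srebf1 lay above the low sitosterol liver by 0.53 to 0.68 without passing the limit. The signs of Mlxipl, Acss2 and Me1 changed with the scaling. Of all calls 48.7% were higher with TMM, 65.1% with library totals and 80.4% on the log2(TPM + 0.1) scale, which moved the median of all genes by 0.36.

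After stigmasterol, 7 of the 9 genes were called lower than in the low sitosterol liver and 0 higher, with Srebf1 and Acaca not called. Of all genes 29.3% were called, 21.0% higher and 8.28% lower, and the medians were -1.73 for the 9 genes and 0.04 for all. Library totals, hepatocyte-gene scaling and log2(TPM + 0.1) raised the median of all genes by 0.73, 0.89 and 0.90. The share of higher among all calls was 71.7% with TMM and 92.9%, 94.8% and 95.2% with these. Library totals and hepatocyte-gene scaling each left 4 of the 9 genes called lower. Acss2, Acacb, Me1 and Thrsp were called under all 10 settings, Fasn under 8, Mlxipl and Acly under 6, and Acaca ran from -0.91 to 0.14. The liver marker lists moved with this comparison. Of 15 hepatocyte genes 7 were called lower, at a median of -0.98. Of 10 bile duct genes 10 were called higher, at a median of 3.64, and their summed level was 1224 TPM in the stigmasterol liver, against 46.6 TPM in the low sitosterol liver. Of 12 stellate cell and matrix genes 9 were called higher, at 3.07. With hepatocyte genes as the scale, Thrsp was still at -4.21 and Acss2 at -1.75.

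The 3 comparisons share the low sitosterol liver, so their values are not independent of each other, and the ratios below give the sterol-fed livers against one another. Stigmasterol differs from sitosterol by a double bond in the side chain, and ergosterol by a methyl in place of an ethyl side-chain group and by further double bonds. The amounts fed are not given, so the doses may differ. The stigmasterol liver had 4 genes called lower than the high sitosterol liver (Mlxipl, Acss2, Fasn and Thrsp) and 0 called higher, beside 21.8% of all genes called, 15.9% higher and 5.94% lower. The medians were -0.98 for the 9 genes and 0.06 for all, and the share of higher among all calls was 72.8% with TMM, 91.8% with library totals and 98.0% with hepatocyte-gene scaling. With hepatocyte genes as the scale the median of the 9 genes was 0.16, with 2 called higher (Acly at 1.24 and Me1 at 1.36) and 1 lower (Thrsp). With TMM, Acly and Me1 were at 0.10 and 0.22. In the same pair 7 of 15 hepatocyte genes were called lower, and 9 of 10 bile duct and 8 of 12 stellate cell and matrix genes were called higher. Their part in the members' values was not tested. Thrsp was at -4.06 and was called under all 10 settings, whereas the signs of Srebf1, Acaca and Acacb changed with the scaling.

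The ergosterol liver had 4 genes called higher than the high sitosterol liver, Acly at 2.21 (2.16 to 2.26), Me1 at 1.98 (1.94 to 2.02), Acacb at 1.62 and Acss2 at 1.05, and 1 called lower, Thrsp at -1.32. The background was 15.3% called, 6.03% higher and 9.22% lower, the median of the 9 genes was 0.44, and those 4 were called higher under all 10 settings. Of all calls 39.5% were higher with TMM and 70.6% with hepatocyte-gene scaling. Against the stigmasterol liver, the ergosterol liver had 8 genes called higher, from 1.14 for Acaca to 2.74 for Thrsp, with Srebf1 not called at 0.60. Here 26.5% of all genes were called, 7.40% higher and 19.1% lower, and the medians were 1.76 for the 9 genes and -0.02 for all. Of all calls 27.9% were higher with TMM, 9.59% with library totals and 5.23% with hepatocyte-gene scaling. Acly, Acss2, Acacb and Thrsp were called higher under all 10 settings.

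**Figure D2:**
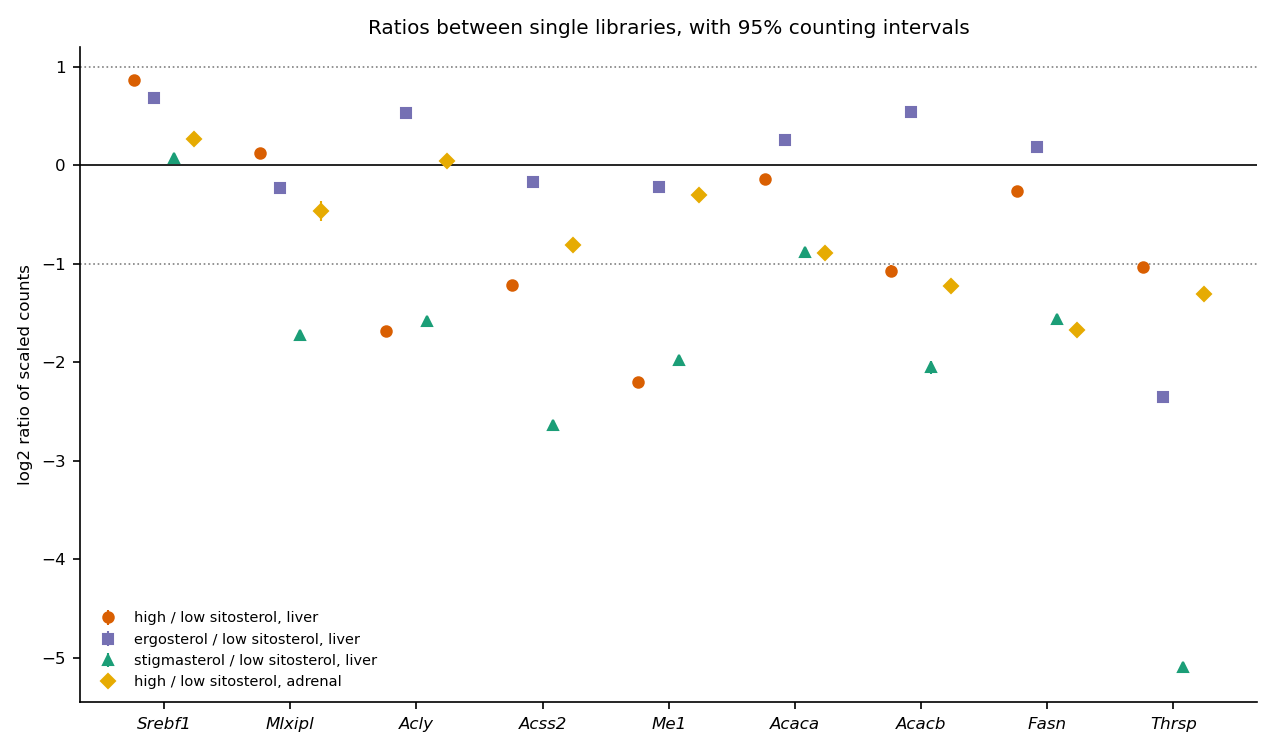
Log2 ratio of scaled counts (vertical axis) of the 9 genes for each sterol-fed liver against the low sitosterol liver and the high against the low sitosterol adrenal, 1 library each, with exact 95% counting intervals that are mostly smaller than the points. Dotted lines mark 2-fold, and Srebf1 is the gene whose 4 points all lie above 0.

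Genes around the pathway were described from lists, some of which share genes (Aacs, Mid1ip1, Pnpla3 and G6pc each stand in more than 1). Over all genes, 8.63% were called higher and 4.32% lower after high sitosterol, and 5.77% and 6.08% after ergosterol. After stigmasterol the shares were 21.0% and 8.28%. Some of the list counts lie near or below these shares. Of 17 genes for substrate and NADPH supply, 1 was called lower and 1 higher after high sitosterol, 1 and 1 after ergosterol, and 2 and 1 after stigmasterol, with medians of -0.33, -0.07 and -0.62. G6pdx was the lower one each time, joined after stigmasterol by Dlat, a pyruvate dehydrogenase subunit, at -1.22. The citrate carrier Slc25a1 was at -0.37, -0.02 and -0.61. Of 15 genes that act on malonyl-CoA or its control, 1, 2 and 2 were called lower and 0, 0 and 1 higher, with medians of -0.18, 0.06 and -0.23. Aacs, which activates acetoacetate for lipid synthesis, was the lowest in all 3, at -1.05, -2.11 and -3.12.

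Of 11 genes for SREBP processing, 0 were called after high sitosterol or ergosterol, and the medians were -0.26, 0.26 and -0.04 over the 3 comparisons. After stigmasterol 2 were called lower, Insig1, which holds SREBPs in the endoplasmic reticulum and is itself an SREBP target, at -1.99, and Scap, the SREBP escort, at -1.15. Insig2 was at -0.91 after high sitosterol, 0.29 after ergosterol and -0.22 after stigmasterol. Nr1h3, which encodes LXR alpha, was at -0.07, -0.07 and -0.81.

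Of 15 other SREBP-1 targets, 2 were called lower after high sitosterol, 5 after ergosterol and 8 after stigmasterol, with medians of -0.28, 0.03 and -1.25. Pnpla3, a lipid droplet enzyme, had 5.96, 15.8 and 1.53 scaled CPM in the high sitosterol, ergosterol and stigmasterol livers, against 20.0 in the low sitosterol liver. Lpin1, which makes diacylglycerol, was at -2.57 after ergosterol and -4.18 after stigmasterol. Gpam, the first enzyme of glycerolipid synthesis, was called higher after ergosterol, with 86.3 scaled CPM in the ergosterol and 21.5 in the low sitosterol liver. The elongase Elovl6 was at -0.28, 0.19 and -1.25.

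Of 16 ChREBP partners and targets, 7 were called lower and 0 higher after high sitosterol, 1 and 1 after ergosterol, and 10 and 1 after stigmasterol, with medians of -0.72, -0.32 and -1.11. Pklr, liver pyruvate kinase, had 279 scaled CPM in the high sitosterol, 423 in the ergosterol and 86.5 in the stigmasterol liver, against 715 in the low sitosterol liver. Klf10, a glucose-induced repressor, was at -1.86, -3.20 and -3.17. Fgf21, a hormone gene of the list, was the 1 called higher after both ergosterol and stigmasterol, at 1.21 and 1.84. G6pc, the glucose-6-phosphatase gene, was called lower at -3.57 after high sitosterol and at -1.10 after stigmasterol. It had 42.7, 460 and 236 scaled CPM in the high sitosterol, ergosterol and stigmasterol livers, against 507 in the low sitosterol liver. After high sitosterol the other 9 were not called, and 3 of the 16 lay above 0.

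Clock and fasting genes differed between the same livers. Of 16 clock genes, 3 were called higher and 1 lower after high sitosterol, 4 and 4 after ergosterol, and 4 and 6 after stigmasterol, with medians of 0.19, -0.40 and -0.76. Dbp, a clock output factor, had 169 scaled CPM in the high sitosterol, 6.16 in the ergosterol and 7.99 in the stigmasterol liver, against 127 in the low sitosterol liver. Npas2 had 0.239, 3.85 and 6.10, against 0.371 in the low sitosterol liver. Of 15 fasting-response genes, 2, 8 and 7 were called higher and 1, 0 and 3 lower, at medians of 0.02, 1.07 and 0.63, and Cyp4a14, a PPAR alpha target, was at 2.10, 6.14 and 4.70. The labels give no hour of collection or feeding state, and the part of clock and fasting genes in the values of Thrsp and the other members was not tested.

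Of 15 insulin signalling genes, 0 were called after high sitosterol, 3 were called higher after ergosterol and 2 after stigmasterol, with medians of -0.14, 0.37 and -0.02. Irs1, an adaptor of the insulin receptor, was at 2.87 after ergosterol and 1.30 after stigmasterol. Igfbp1, which insulin represses, was at 1.40 and 2.21 in the same order. Of 14 genes of the thyroid axis in liver, 3, 0 and 6 were called lower and 0, 1 and 1 higher, with medians of -0.28, 0.11 and -0.77. The largest ratios of this list after stigmasterol were Slco1a1 at -6.40, Slc10a1 at -3.80 and, in the other direction, Hr at 3.76. The receptor gene Thrb was called lower after stigmasterol, at -1.46. Of 20 upstream transcription factors, 1, 2 and 6 were called lower and 0, 1 and 0 higher, with medians of -0.15, 0.05 and -0.30. Among them was Bhlhe41, a clock-linked repressor, at -1.88, -4.20 and -3.33. Macrophage genes were called higher for 12 of 12 after high sitosterol, 3 after ergosterol and 8 after stigmasterol (1 lower), and their part in the members' values was not tested.

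**Figure D3:**
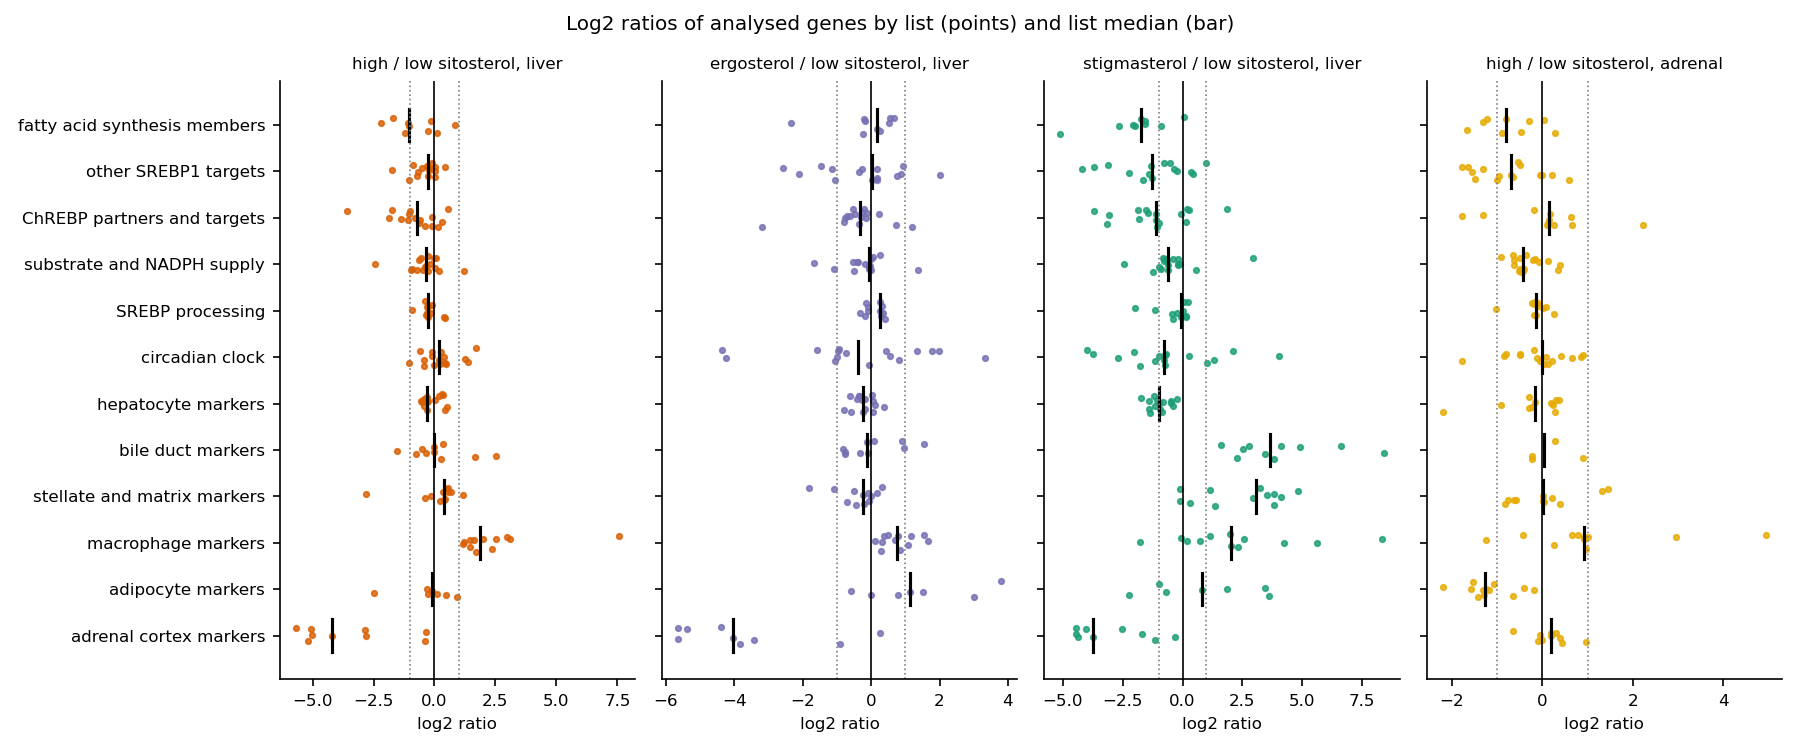
Log2 ratios (horizontal axes, scales differ) of the analysed genes of each list for each sterol-fed liver against the low sitosterol liver (high sitosterol, ergosterol, stigmasterol) and the high against the low sitosterol adrenal, with a point per gene and a bar at the list median. The 9 fatty acid synthesis genes have medians of -1.03, 0.18, -1.73 and -0.81, and the adipocyte markers have -1.28 in adrenal.

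Between the adrenals, 3 of the 9 genes were called and 6 were not. Srebf1 had 258 scaled CPM in the high and 215 in the low sitosterol adrenal, and Mlxipl 30.0 and 41.4. Acly was nearly alike, with 2475 in the high and 2403 in the low sitosterol adrenal, and Me1 had 1294 and 1592. Acss2 had 82.8 and 145, and Acaca 359 and 664. None of these 6 passed the limit, and Acss2 and Acaca came nearest, at -0.81 and -0.89.

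The synthase, the mitochondrial carboxylase and Thrsp did. Fasn had 1250.1 scaled CPM in the high and 3984 in the low sitosterol adrenal, a log2 ratio of -1.67 (-1.69 to -1.66), and 0.569% of genes had a lower one. Thrsp had 195 and 481 scaled CPM, at -1.31 (-1.34 to -1.27). Acacb had 125 and 292, at -1.23 (-1.27 to -1.18). In all, 3 of 9 genes were called lower and 0 higher, against 6.11% of the 14224 genes analysed, 3.80% higher and 2.31% lower. These 3 calls held under all 9 settings. The median was -0.81 for the 9 genes and 0.00 for all.

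Of 15 other SREBP-1 targets, 5 were called lower and 0 higher, among them Scd1 with 3718 scaled CPM in the high and 10936 in the low sitosterol adrenal, at -1.56, Dgat2 at -1.66, Pnpla3 at -1.77 and Elovl6 at -1.48. Adipocyte markers were lower in the same library: 9 of 12 were called lower and 0 higher, at a median of -1.28. Adipoq, the adiponectin gene, had 103 scaled CPM in the high and 255 in the low sitosterol adrenal, Plin1 had 120 and 275, and Ucp1, which marks brown fat, had 66.8 and 308. The summed level of the adipocyte list was 3643 TPM in the high and 8917 TPM in the low sitosterol adrenal. Adrenal cortex markers were called in 0 of 10, at a median of 0.18, and summed to 57845 TPM in the high and 54436 TPM in the low sitosterol adrenal.

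Set against Adipoq, Thrsp TPM was 1.72 times Adipoq in the high and 1.76 times in the low sitosterol adrenal. Acacb was at 0.154 and 0.141, Fasn at 1.93 and 2.33, Acaca at 0.484 and 0.384, and Acss2 at 0.309 and 0.226. Acly was at 6.13 and 2.41, Me1 at 5.07 and 2.59, Srebf1 at 0.816 and 0.288, and Mlxipl at 0.126 and 0.0746. Adipoq itself had 151 TPM in the high and 373 TPM in the low sitosterol adrenal. A gene with a similar fall must therefore keep its ratio, so these values restate the ratios above. Adipoq was chosen as the reference after the values were seen. The part of fat tissue in the adrenal values was not tested. In the livers 5 of the 12 adipocyte markers (Adipoq, Lep, Plin1, Retn and Ucp1) were below the limit for low counts in every library, and Adipoq had 5, 1 and 3 counts in the high sitosterol, ergosterol and stigmasterol livers and 28 in the low sitosterol liver. Of the 7 that were analysed, 0, 4 and 3 were called higher and 1, 0 and 1 lower after high sitosterol, ergosterol and stigmasterol, with medians of -0.11, 1.15 and 0.82. Among the higher ones, Cfd had 34.7 scaled CPM in the ergosterol and 2.47 in the low sitosterol liver, and Cidec, a lipid droplet gene, had 63.4 in the stigmasterol and 5.83 in the low sitosterol liver. The list summed to 621, 1868 and 780 TPM in the high sitosterol, ergosterol and stigmasterol livers, against 624 TPM in the low sitosterol liver. Its median gene had only 1.93, 3.90, 2.48 and 1.68 TPM in these livers, so the sums rest on part of the list. In the high and low sitosterol adrenals the median gene had 136 and 312 TPM. The part of these genes in the liver values was not tested.

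The tissues differed in which genes led. The adrenal libraries also had almost no Eif2s3y counts, unlike the livers, so tissue, sex and animal cannot be told apart here. Per length, Acly and then Me1 were highest of the 9 genes in the high sitosterol adrenal, and Me1 and then Acly in the low sitosterol adrenal. Acly had 928 and 898 TPM in the high and low sitosterol adrenals, against 26.9 to 119.5 TPM in the livers. Me1 had 767 and 965 TPM, against 69.1 to 286 TPM, and Acaca had 73.2 and 143 TPM, against 18.9 to 31.3 TPM. Mlxipl was lower, at 19.1 and 27.8 TPM, against 30.5 to 76.1 TPM in the livers. For 5 of the 9 genes the tissues overlapped. Of 15297 genes with at least 1 TPM in a library, 81.6% did not overlap, 72.3% higher and 9.30% lower in adrenal, so 3 genes higher and 1 lower is no more than the background.

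The high against low sitosterol comparison gave different genes in the 2 tissues. Me1 and Acly were at -2.20 and -1.68 in liver and at -0.30 and 0.04 in adrenal, while Fasn was at -0.26 in liver and -1.67 in adrenal. Acacb and Thrsp were called lower in both with TMM, at -1.07 and -1.03 in liver and -1.23 and -1.31 in adrenal. Their liver ratios were near the 2-fold limit and were called under 7 of 10 settings, reaching -0.77 and -0.76. The adrenal calls held under all 9. Srebf1 was at 0.86 and 0.27. With 1 library per group the difference between the tissues was not tested. Since the adrenals went against their male label, tissue cannot be told apart from sex and animal in these values.

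Profiles over the 4 livers were compared by the root mean square difference of centred log2 scaled CPM, among the 6941 of 7306 genes with a mean of at least 10 scaled CPM that are outside the set and have an ordinary symbol (a capital, then small letters and digits, without the Gm and Rik series). Among the 9 genes, the closest pairs were Acaca with Fasn at 0.269, Acly with Me1 at 0.271, Mlxipl with Fasn at 0.291 and Acss2 with Acacb at 0.295. Thrsp was the farthest, at 1.21 to 1.87 from the others. Outside the set, the nearest to Srebf1 were Prob1 at 0.066 and Zscan29 at 0.0877, to Mlxipl Spp2 at 0.104 and Slc46a3 at 0.110, and to Acly Slc30a10 at 0.180 and Paqr9 at 0.208. Nearest to Acss2 were Sucnr1 at 0.124 and Cyp4a12a at 0.170, to Acaca Upb1 at 0.0362 and Mpst at 0.0543, and to Acacb Npr2 at 0.0854 and Pdk1 at 0.149. Nearest to Fasn were Slco2b1 at 0.0304 and Thrb at 0.0555, to Me1 Akr1c14 at 0.273 and Adipor2 at 0.289, and to Thrsp Fabp5 at 0.272 and Lpin1 at 0.425. These are likenesses over 4 libraries only.

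**Figure D4:**
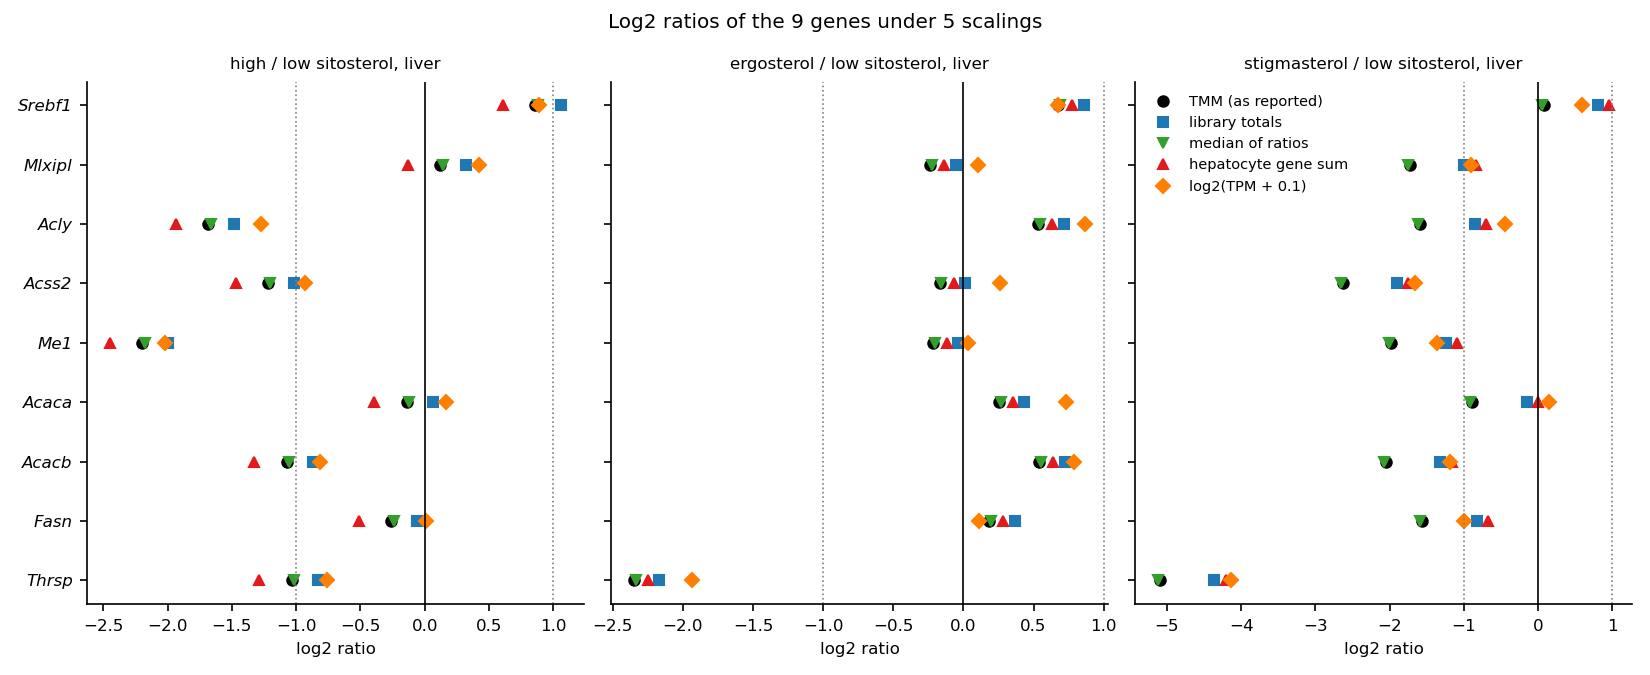
Log2 ratios (horizontal axes) of the 9 genes for the high sitosterol, ergosterol and stigmasterol livers, each over the low sitosterol liver, under 5 scalings, 1 library per group. In the stigmasterol panel the alternatives other than the median of ratios shift the genes to the right, Thrsp to between -4.36 and -4.13, and Acaca reaches 0.00 with hepatocyte genes as the scale and 0.14 with log2(TPM + 0.1).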

How the data were processed

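Per the labels' protocols, the RNA was isolated with a Qiagen RNeasy kit before TruSeq RNA v2 library construction. The submitters' processing notes list kallisto 0.43.1, HISAT2 2.0.5 and Trimmomatic 0.33, in no stated role or order, and mm10 as the build. The authors deposited estimated counts and TPM by gene symbol, in a table each, for the same 6 libraries. Of the genes, 38.8% to 49.1% had a count that was not whole, and all counts were rounded. The 1 row that names no gene held 0 counts and was left out.

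TMM factors were computed within each tissue with edgeR 4.0.16 (R 4.3.3). Genes with at least 1 CPM in at least 1 library of a tissue were analysed, 13378 in liver and 14224 in adrenal. Log2 ratios used a prior count of 0.5, and their 95% intervals are exact conditional binomial (Clopper-Pearson) intervals for counting error only. The limit for a count of 0 is 3 counts. There were 7 comparisons and no test. The calculation was checked on simulated counts that held counting error but no spread between mice, so the check does not bear on that spread. The 9 alternatives were library totals, DESeq2 1.42.0 size factors, a prior count of 2, no filter, a 5 CPM filter, a 1.5-fold rule, scaling to hepatocyte genes (liver only) and log2(TPM + 0.1) and log2(TPM + 1), the last pair without an interval. A gene's name matched GENCODE M21 (GRCm38), used for coordinates, for 32158 of 33639 symbols.

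Genes named are the 9 genes, Abcg8, fixed neighbours (Scd1, Elovl6, Pnpla3, Pklr, Insig1, Insig2, Mid1ip1, Slc25a1 and Nr1h3), up to 3 genes of each list with the largest called ratios, and the nearest pair of profiles per gene. Some genes that this rule names are left out here. Srebf2, Gss, Eif2s3y and the adipocyte genes were added after their values were seen. The members and lists were chosen with earlier results of these data known.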

Additional observations from a re-analysis of the deposited data

How the results depend on the processing

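No ratio of the 9 genes that was called changed sign under any of the 9 alternatives, and 109 of the alternative values for counts of called genes stayed within 1.5 times. The other 15 were as follows. With library totals, high against low sitosterol in liver had 1 gene higher and 3 lower, stigmasterol against low sitosterol had 4 lower and stigmasterol against high sitosterol had 2 lower. With the 1.5-fold rule, high against low sitosterol in liver had 1 higher, ergosterol against low sitosterol 1 higher, high against low sitosterol in adrenal 5 lower and stigmasterol against high sitosterol 7 lower. With hepatocyte-gene scaling, stigmasterol against low sitosterol had 4 lower, stigmasterol against high sitosterol 2 higher and 1 lower, ergosterol against high sitosterol 0 lower and ergosterol against stigmasterol 4 higher. With log2(TPM + 0.1) and log2(TPM + 1), high against low sitosterol in liver had 2 lower each. The causes were not tested, apart from the lower bar of the 1.5-fold rule. No paired analysis was possible because each group has 1 library and no replicate numbers. Depth does not limit the 9 genes, and the lack of replicate mice limits all comparisons.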
